A study of Mus musculus with 15 samples.

Results

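YAP1 and its paralog TAZ (gene Wwtr1) are transcriptional coactivators that are held in the cytoplasm when the Hippo kinases phosphorylate them. When they enter the nucleus they bind TEAD factors on DNA and switch on a set of target genes that includes Ccn1 (also known as Cyr61), Ccn2 (also known as Ctgf) and Ankrd1. In skin the pathway is known for its part in the growth of basal keratinocytes and in wound repair. The 10 genes described here were chosen by name from this pathway: the coactivators Yap1 and Wwtr1, the DNA-binding partner Tead1, the kinase Lats2, the LATS regulators Ajuba and Amotl2, and the commonly used target readouts Ccn1, Ccn2, Ankrd1 and Axl. They are 10 of the 36528 genes in the files, and 9 of them are among the 18751 genes with enough counts to test. The rise of Ccn2 under the drug was known when the 10 genes were chosen, so their differences from control are descriptions. Counts of those past the threshold of the all-gene fit are given for the record, beside the same share of all genes, and support nothing.

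The cells were tumour cells sorted from the skin of mice with basal cell carcinoma, a cancer driven by Hedgehog signalling. All 3 groups had the same genotype, given as K14Cre-ER; Ptch1fl/fl; p53fl/fl;Lgr5GFP: an inducible Cre recombinase under the keratin 14 promoter of basal keratinocytes, floxed alleles of the Hedgehog receptor gene Ptch1 and of the p53 gene, and a GFP reporter at Lgr5. There were 4 control libraries, from mice the series describes as untreated. Titles of some control libraries carry MCT, which the labels do not expand. The drug groups held 8 libraries after 6 days and 3 after 14 days of vismodegib. This drug blocks SMO, through which Hedgehog signals are passed on. The labels give no sort gate, age or dose, and do not tie each library to an animal of its own. Every p-value therefore measures spread among libraries, which may in part be technical.

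Total counts per library ran from 27336935 to 256569828, and a count of 3 equals at most 0.105 CPM (the count of a gene scaled to library size with TMM factors), the unit of all levels below unless stated. The submitters' sample numbers fall into 3 ranges. Range A holds 3 control and 5 six-day libraries (27336935 to 38657170 counts), range B holds control library 4 and 6-day libraries 2, 5 and 7 (93183564 to 256569828 counts), and range C holds the 3 14-day libraries alone (119045864 to 162951666 counts). The labels do not say what a range is, and 14 days of drug cannot be told apart from range C. Range B stood apart: its libraries differed from the others, with treatment group in the fit, in 8073 of 18751 genes, which is 43.1%. The fitted differences of the 9 tested genes are therefore plotted with and without it. In the text both values are given for Ccn2, Axl, Yap1 and Tead1, for Ccn1 at 6 days and for Ajuba at 14 days. For Amotl2, Lats2 and Wwtr1 the text gives the fold changes over all libraries only. As a check of drug response, 1 of 5 Hedgehog readouts fell at 6 days (Hhip, by 2.47 on the log2 scale, adjusted p 0.0362, edgeR) and 4 of 5 at 14 days (Hhip by 2.80, adjusted p 0.0394). The Hhip call was kept in 9 and 8 of the 15 fits that left out 1 library. Without control library 2 it was lost at both times, at -1.83 and -2.13, and without 14-day library 3 it was lost at 14 days, at -3.46. The 5 epithelial markers summed to 10153 to 30354 CPM. The 6 fibroblast markers summed to 8.61 to 21.4 CPM in control, 4.06 to 19.7 at 6 days and 5.32 to 8.82 at 14 days, with Lum at 0 in every control library. The 5 endothelial markers never summed to more than 3.91 CPM, with Emcn at 0 in every control and 6-day library, and the 5 skeletal muscle markers never to more than 4.78 CPM. The 6 mural cell markers summed to 287.8 to 771.3 CPM in control, 202.9 to 673.4 at 6 days and 207.4 to 464.7 at 14 days. Nearly all of that was Cspg4, while Rgs5 was at 0 in every control and 6-day library and Des at 0.02 CPM or less. The 4 melanocyte markers summed to 34.0 to 650.2 CPM in control, 50.5 to 821.4 at 6 days and 46.2 to 349.5 at 14 days. Because the libraries are bulk samples, fewer cells of a type and less RNA per cell cannot be told apart.

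The proximal promoters of the genes are shown because TEAD factors bind the letters CATTCC, which read GGAATG on the other strand. RefSeq promoter windows (GRCm38.p6, 250 bases before to 50 after a start) were matched for 8 of the 10 genes; Ccn2 and Tead1 had no entry. All 8 genes held the hexamer on one strand or the other in at least 1 window. They had 10 windows in all, and 1 of the 2 of Lats2 held no match. Counted by window and not by gene, 14.7% of the 32851 windows of this length in the mouse genome held it. An AP-1 motif, TGANTCA (the same on both strands), was in the windows of 0 of the 8 and in 7.81% of all windows. A match is a description of the letters and not evidence of binding. The 250 bases before the start are given for a CCN target, for the target with no counts, for a coactivator and for the LIM gene, each 5′ to 3′ on the gene's strand, with hexamers in capitals. They are chr3:145649986-145650235 (minus strand) for Ccn1, chr19:36119845-36120094 (minus) for Ankrd1, chr3:57575911-57576160 (minus) for Wwtr1 and chr14:54577662-54577911 (minus) for Ajuba.
Ccn1: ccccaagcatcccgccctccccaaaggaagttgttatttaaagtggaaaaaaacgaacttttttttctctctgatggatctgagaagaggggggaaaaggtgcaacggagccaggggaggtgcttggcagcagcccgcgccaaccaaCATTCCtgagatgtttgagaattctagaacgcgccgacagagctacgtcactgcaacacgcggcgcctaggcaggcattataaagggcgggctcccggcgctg
Ankrd1: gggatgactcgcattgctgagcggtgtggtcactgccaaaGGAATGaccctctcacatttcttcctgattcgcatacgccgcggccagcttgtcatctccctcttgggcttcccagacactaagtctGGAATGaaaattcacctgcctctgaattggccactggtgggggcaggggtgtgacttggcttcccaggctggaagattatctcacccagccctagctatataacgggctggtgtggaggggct
Wwtr1: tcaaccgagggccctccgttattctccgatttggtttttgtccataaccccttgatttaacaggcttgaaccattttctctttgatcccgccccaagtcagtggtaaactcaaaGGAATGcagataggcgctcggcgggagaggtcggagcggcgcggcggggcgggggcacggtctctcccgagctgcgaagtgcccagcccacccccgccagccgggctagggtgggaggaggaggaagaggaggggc
Ajuba: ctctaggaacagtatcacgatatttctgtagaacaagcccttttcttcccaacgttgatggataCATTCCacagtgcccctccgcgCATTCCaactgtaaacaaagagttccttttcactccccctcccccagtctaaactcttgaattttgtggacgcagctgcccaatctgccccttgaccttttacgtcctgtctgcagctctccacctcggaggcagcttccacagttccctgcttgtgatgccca
The first base of the hexamer lies 103 bases before the start in Ccn1 and 136 before it in Wwtr1. Ankrd1 and Ajuba each held it at 2 places, 210 and 123 bases before the start in Ankrd1 and 186 and 164 before it in Ajuba. Of all windows 1.36% held it at 2 or more places. In the windows that are not printed it began 65 bases before the start in Amotl2, 233 in Axl and 141 in Yap1, and 4 bases after 1 of the 2 starts in Lats2.

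Ccn2 lay above control in every drug-treated library, while the levels of its close relative Ccn1 overlapped between the groups. Ccn2 encodes a secreted matricellular protein that binds integrins and growth factors, and it is also a readout of TGF-beta signalling (chr10:24595442-24598683, GRCm38.p6). Its level was 90.8, 156.6, 154.6 and 97.5 CPM in control libraries 1 to 4. At 6 days it ran from 259.6 CPM through a median of 828.5 to 1956 CPM, and at 14 days it was 331.4, 860.1 and 946.5 CPM. Every drug-treated library was above every control library, and the lowest drug-treated values were in 6-day library 7, of range B, and in 14-day library 1. The fitted log2 fold change against control was 2.84 (SE 0.50), or 7.18-fold, at 6 days and 2.51 (SE 0.54), or 5.71-fold, at 14 days; both comparisons use the same 4 control libraries. Within range A, control was 134.0 ± 37.5 CPM (SD, n = 3) and 6 days 1179 ± 462 CPM (SD, n = 5). Within range B the single control was at 97.5 CPM and the 6-day libraries at 509.8, 507.0 and 259.6 CPM, a fitted log2 difference of 2.12. Without range B the log2 fold changes were 3.11 at 6 days and 2.39 at 14 days. The 14-day libraries overlapped the 6-day ones, and the log2 difference between them was -0.33 (SE 0.48, adjusted p 0.727 by edgeR). The part of the other cell types whose marker sums are given above was not tested.

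Ccn1 encodes the sister matricellular protein CYR61 (chr3:145646971-145649985). Its level was 61.5, 19.6, 26.2 and 6.28 CPM in control libraries 1 to 4. At 6 days it ran from 13.4 through 32.8 to 69.7 CPM, and at 14 days it was 28.9, 38.9 and 48.1 CPM. The 3 groups overlapped, and the controls held both the lowest value of all libraries and one of the highest. Its log2 fold change was 0.31 (SE 0.51) at 6 days, with a 95% interval of -0.70 to 1.32, and 0.45 (SE 0.63) at 14 days, with an interval of -0.79 to 1.68. Without the lowest control library, number 4, the range of the controls narrows to 19.6 to 61.5 CPM. In range B the 6-day value was higher than its single control by 1.45 on the log2 scale, and without range B the 6-day difference was 0.32.

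**Figure D1:**
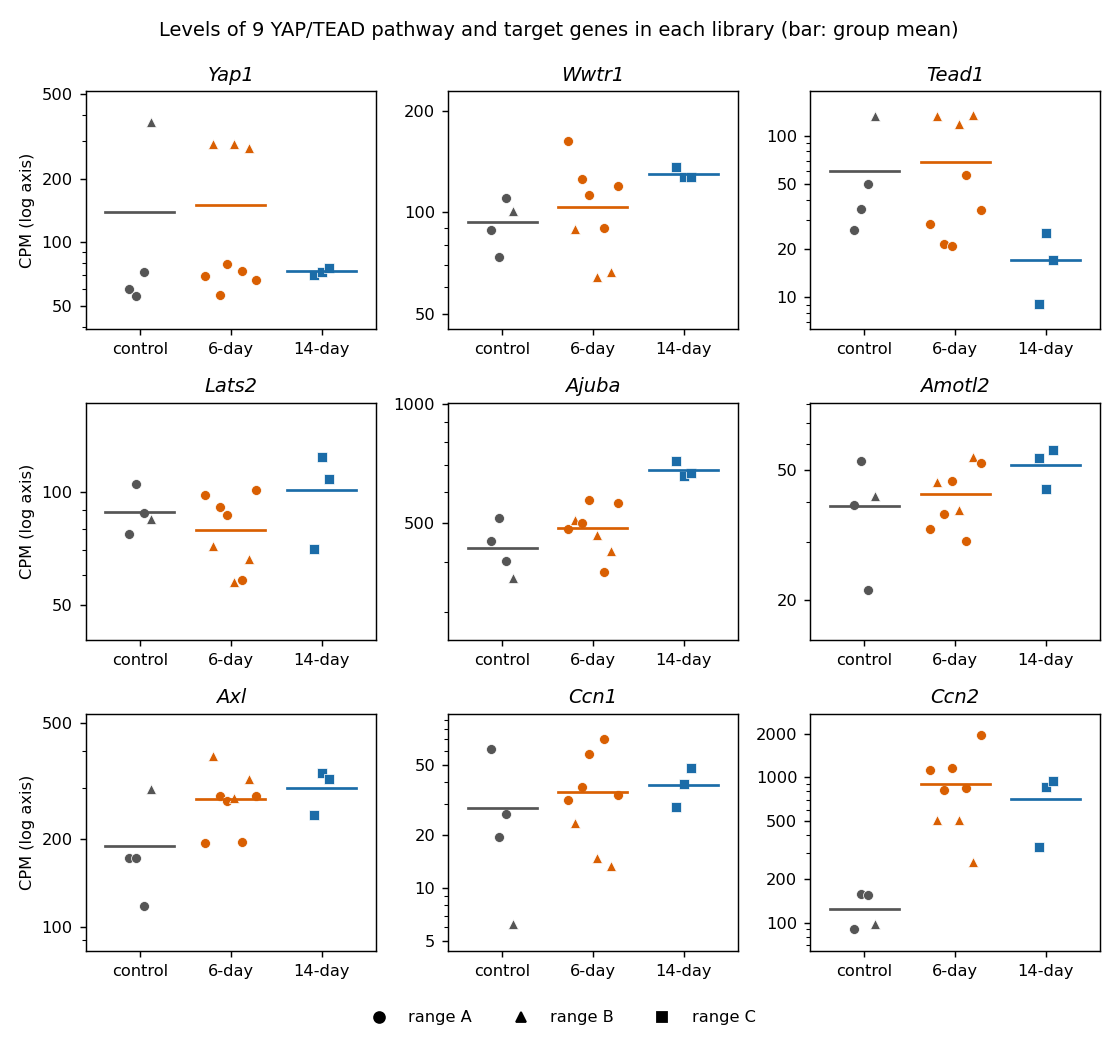
Level of 9 genes in each library, in CPM on a log axis, by group, with the bar at the group mean and the marker shape giving the range of submitters' sample numbers. All 11 drug-treated libraries lie above the 4 controls for Ccn2, and the 4 range B libraries (triangles) stand apart for Yap1 and Tead1.

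The difference between the CCN genes also appeared within single libraries. On the authors' length-adjusted scale (normalized RPKM), which allows levels of different genes to be compared, the ratio of Ccn2 to Ccn1 was 1.25, 6.73, 4.97 and 13.1 in control libraries 1 to 4. It ran from 10.2 through 18.3 to 48.9 at 6 days and was 9.68, 18.6 and 16.6 at 14 days. In range A the controls (1.25 to 6.73) lay below all 6-day libraries (10.2 to 48.9), and in range B the control at 13.1 lay below 6-day values of 16.3 to 28.7. Across all libraries only control 4 overlapped the drug groups. No test was made on these ratios because the rise of Ccn2 was used in choosing the genes.

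Ankrd1, a muscle ankyrin-repeat protein and one of the standard YAP readouts, had a count of 0 in every one of the 15 libraries, out of 1361659185 counts in all (chr19:36111965-36119844). A count of 0 allows up to 3 counts, or at most 0.105 CPM in any library. It shared this with 3419 of 21271 protein-coding genes, or 16.1%. It was left out of the tests.

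Axl, a receptor tyrosine kinase for the ligand GAS6 and a YAP/TEAD target in many epithelial tumours, was at 172.2, 171.9, 117.8 and 295.7 CPM in control libraries 1 to 4 (chr7:25756500-25788924). It ran from 194.2 through 278.4 to 384.2 CPM at 6 days and was 241.7, 337.6 and 320.9 CPM at 14 days. Control 4, of range B, was the only control library inside the range of the drug groups. The log2 fold change was 0.54 (SE 0.24) at 6 days and 0.66 (SE 0.29) at 14 days. Without range B these were 0.64 and 0.94, and within range B the 6-day difference was 0.14.

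Amotl2 encodes an angiomotin family protein that tethers YAP at cell junctions and is itself a YAP target (chr9:102717091-102733418). Its level was 39.0, 53.2, 21.4 and 41.7 CPM in control, 30.2 through 41.8 to 55.0 CPM at 6 days, and 54.4, 43.9 and 57.6 CPM at 14 days. The groups overlapped, with log2 fold changes of 0.12 (SE 0.22) and 0.42 (SE 0.27) against control.

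Lats2, the kinase that phosphorylates YAP and TAZ and is induced by them in feedback, was at 77.5, 105.3, 87.9 and 84.8 CPM in control (chr14:57689662-57746212). It ran from 57.4 through 79.5 to 101.8 CPM at 6 days and was 70.6, 124.4 and 108.8 CPM at 14 days. The groups overlapped, and the log2 fold changes were -0.17 (SE 0.19) and 0.19 (SE 0.24). The genes here that belong to a published 22-gene YAP/TAZ target signature are Ccn1, Ccn2, Ankrd1, Amotl2, Axl and Lats2. Of these 6, Ccn2 alone had every drug-treated library above every control, and its rise was known when the genes were chosen. Ankrd1 had no counts, and Axl missed only through control 4 (295.7 CPM). Of all tested genes 1.22% were higher in every 6-day library than in every control, and 11.7% in every 14-day library. The share for both together was not computed.

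Ajuba, a LIM protein that binds LATS kinases and limits their action on YAP, was the most abundant of the 10 in control on the per-length scale, at 105 ± 15 normalized RPKM (SD, n = 4) against 44.1 ± 12.2 for Ccn2 (chr14:54567469-54577661). Its level was 451.9, 515.3, 403.4 and 363.8 CPM in control and ran from 377.7 through 493.1 to 571.8 CPM at 6 days. At 14 days it was 718.5, 656.9 and 667.8 CPM, above every other library. Of all tested genes 5.42% were higher in every 14-day than in every 6-day library, and 11.7% than in every control library. The share above both was not computed. The log2 fold change against control was 0.17 (SE 0.14) at 6 days and 0.65 (SE 0.17) at 14 days, and 0.56 at 14 days without range B. Between 14 and 6 days it was 0.48 (SE 0.15, adjusted p 0.0823 by edgeR), which misses the threshold of 0.05, while DESeq2 gave an adjusted p of 0.0159. The 6 myeloid markers also moved with the 14-day group: they summed to 17.3 to 26.0 CPM at 14 days, 4.04 to 14.3 in control and 1.05 to 9.36 at 6 days, with Adgre1 at 0 in every 6-day library. Their part in the 14-day values was not tested.

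Among the coactivators and their partner, Yap1 and Tead1 had their high values in range B. Yap1 was at 60.3, 55.8, 72.3 and 368.8 CPM in control libraries 1 to 4 (chr9:7931999-8004638). At 6 days the range A libraries were at 56.5 to 78.9 CPM and the range B libraries at 291.1, 292.4 and 277.8 CPM, and at 14 days it was 70.5, 72.8 and 75.7 CPM. The 11 libraries outside range B lay between 55.8 and 78.9 CPM whatever the treatment, so the 4 high values are the 4 range B libraries. The log2 fold changes against control were 0.11 (SE 0.61) at 6 days and -0.93 (SE 0.77) at 14 days. Without range B they were 0.10 and 0.20, and the 14-day difference changed sign.

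Wwtr1, which encodes TAZ, was at 88.6, 73.8, 110.4 and 101.1 CPM in control (chr3:57455644-57575910). It ran from 64.4 through 101.5 to 163.2 CPM at 6 days and was 136.4, 127.6 and 127.4 CPM at 14 days, above all 4 controls and within the spread of the 6-day libraries. The log2 fold changes were 0.15 (SE 0.22) and 0.48 (SE 0.27). These are over all libraries, and at 6 days Wwtr1 differed between the ranges. Its mean there was 122.3 CPM in range A and 73.5 CPM in range B. The range A controls averaged 90.9 CPM, beside 101.1 CPM in control 4, of range B. On the per-length scale the ratio of Yap1 to Wwtr1 was 0.488 to 0.934 in the 11 libraries of ranges A and C and 3.72 to 5.18 in the 4 of range B.

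Tead1, a DNA-binding partner of both coactivators, was at 26.0, 35.3, 50.5 and 131.2 CPM in control (chr7:112679356-112906784). At 6 days the range A libraries ran from 20.9 through 28.3 to 57.1 CPM and the range B libraries were at 131.9, 118.6 and 133.8 CPM. At 14 days it was 9.10, 25.1 and 17.0 CPM, below every control, though the highest of these is close to the lowest control at 26.0 CPM. The log2 fold change was 0.17 (SE 0.59) at 6 days and -1.83 (SE 0.78) at 14 days, and without range B -0.24 and -1.14. Between 14 and 6 days it was -2.002 (SE 0.73, adjusted p 0.127 by edgeR, 0.0201 by DESeq2), and -0.91 without range B.

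Over the 9 tested genes, 1 passed an adjusted p of 0.05 at 6 days against control (Ccn2, higher), where 1.26% of all 18751 tested genes did, 0.485% in the higher direction. At 14 days 2 did (Ccn2 and Ajuba, both higher), where 6.6% of all genes did and 3.25% in that direction. These counts rest on contrasts that were known when the genes were chosen, and nothing is read from them. The groups did not overlap for 1 of the 9 at 6 days, where 2.69% of all genes were separated and 1.22% were higher. At 14 days they did not overlap for 4 (Ccn2, Ajuba and Wwtr1 higher, Tead1 lower), where 23.4% of all genes were and 11.7% were higher. The Ccn2 call was lost at 6 days without control library 2 and at 14 days without 14-day library 3, with fold changes of 7.70 and 4.81 there. The Ajuba call was kept in 7 of the 15 fits that left out 1 library.

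Between 14 and 6 days 0 of the 9 were called by edgeR, where 3.89% of all genes were. At an unadjusted p under 0.05 in edgeR there were 2 of the 9, beside 4333 of all 18751 tested genes. DESeq2 called 2, Tead1 and Ajuba, beside 2609 over all genes. The median log2 difference over the 9 was 0.13, against -0.06 over all tested genes.

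**Figure D2:**
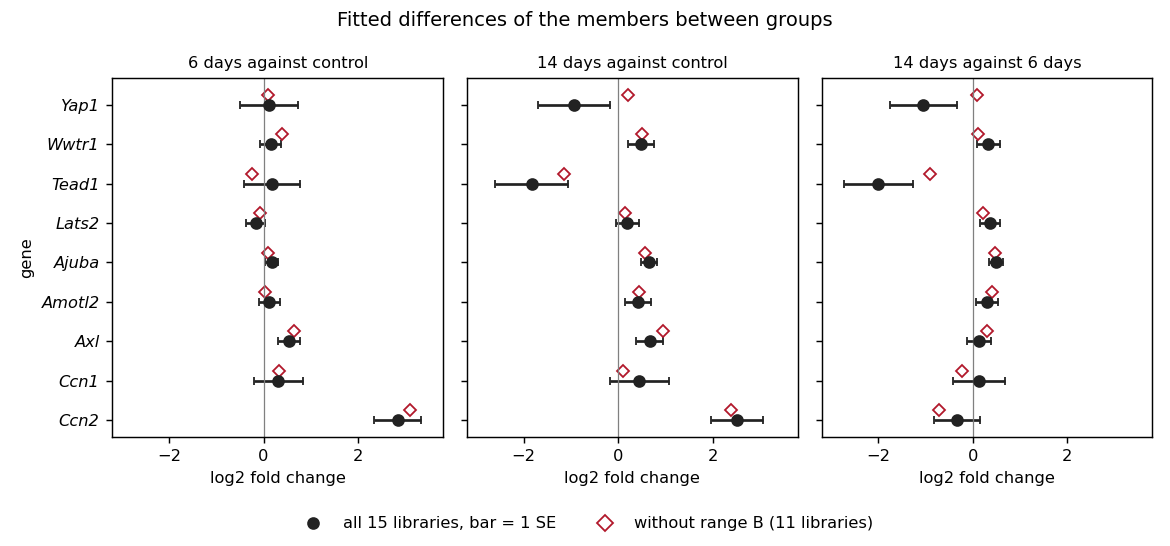
Fitted log2 fold change of the 9 tested genes in the 3 comparisons, over all 15 libraries (filled circles, bar of 1 SE either side) and over the 11 libraries outside range B (open diamonds). Ccn2 lies near 2.84 and 2.51 against control with and without range B close together, while Yap1 goes from -0.93 to 0.20 and Tead1 from -1.83 to -1.14 at 14 days when range B is left out.

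On the per-length scale the order of the genes in control was Ajuba, Ccn2, Axl, Yap1, Wwtr1, Lats2, Ccn1, Amotl2, Tead1 and then Ankrd1 at 0. In that order only Ajuba over Ccn2 was a step between neighbours that did not overlap, apart from the step down to Ankrd1. The place of Yap1 rests on control 4: in the other 3 controls it averaged 12.7 normalized RPKM, below Wwtr1 at 16.1, Ccn1 at 15.03 and Lats2 at 13.8. At 6 days Ccn2 came first, at 309 ± 182 normalized RPKM (SD, n = 8), although its range overlapped that of Ajuba at 115 ± 16 (SD, n = 8). At 14 days it was again first at 246 ± 115 (SD, n = 3), overlapping Ajuba at 162 ± 9 (SD, n = 3). By its median level Ccn2 ranked number 1310 among all genes in control, 56 at 6 days and 54 at 14 days.

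Range B offered a contrast that was not used in choosing the genes, although it was added after the data were seen. With treatment group in the fit, 5 of the 9 genes differed between range B and the other ranges, beside the 43.1% of all genes noted above, and 3 of them were higher there, as were 21.7% of all genes. Yap1 was higher by 2.21 (SE 0.11, adjusted p 2.25e-09, edgeR) and Tead1 by 1.93 (SE 0.28, adjusted p 6.43e-05) on the log2 scale. Ccn1 was lower, with a log2 difference of -1.69 (SE 0.36, adjusted p 0.00147), as was Ccn2 at -1.15 (SE 0.34, adjusted p 0.0138). Axl was higher by 0.58 (SE 0.17, adjusted p 0.0109). These are fitted differences over the groups: single libraries overlapped, and Ccn2 in control 4 (97.5 CPM) lay above control 1 (90.8 CPM). Within the 6-day libraries alone, where 39.8% of all genes were called, Ccn1 (13.4 to 23.4 CPM in range B, 31.8 to 69.7 in range A), Ccn2 (259.6 to 509.8 and 812.3 to 1956 CPM), Tead1 and Yap1 were called again in the same direction. There Axl was not called (log2 difference 0.39, adjusted p 0.125) and Wwtr1 was (-0.76, adjusted p 0.014). Every range B library also had a higher total count than any range A library. The range C libraries, at 119045864 to 162951666 counts, lay within the spread of range B, at 93183564 to 256569828. What part depth or preparation has in these differences was not tested.

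**Figure D3:**
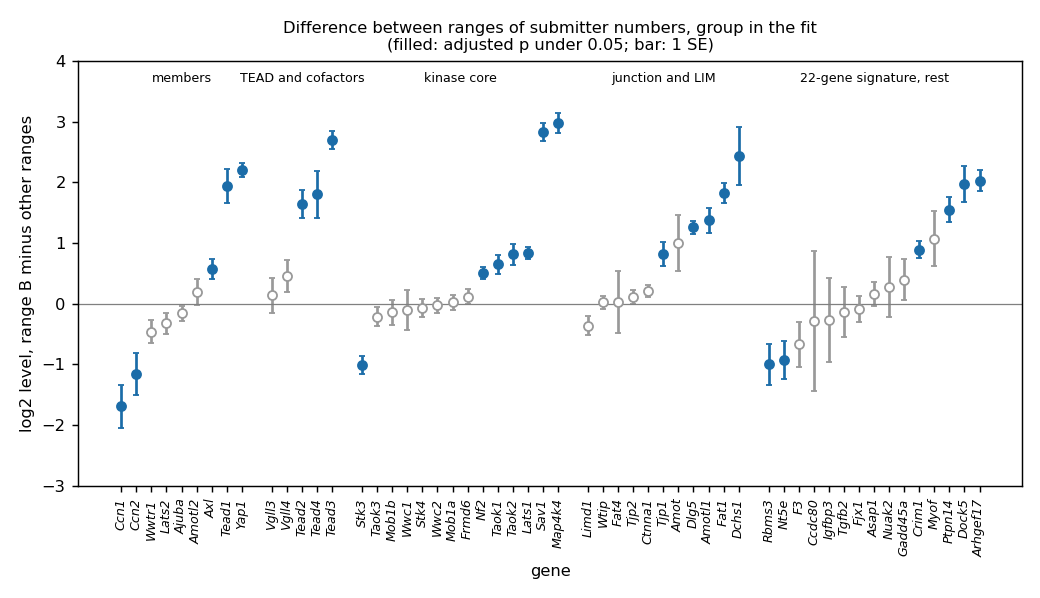
Log2 difference in level between range B and the other ranges with treatment group in the fit, for the 9 tested members and 45 genes of 4 pathway lists, with a bar of 1 SE either side and filled points for an adjusted p under 0.05. Yap1, Tead1, Tead2, Tead3, Tead4, Sav1 and Map4k4 lie above 1.5, and Ccn1, Ccn2 and Stk3 are among the genes below -1.

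In range B the rest of the pathway differed at about the share of all genes, but mostly in the higher direction. Of 47 tested genes on 5 other lists (14 of the Hippo kinase core, 5 TEAD factors and cofactors, 11 junction and LIM regulators, 15 other genes of the 22-gene signature and 2 other CCN genes), 22 differed between range B and the rest (46.8%, beside 43.1% of all genes), 19 of them higher. The other 3 were lower, while over all genes 4076 were higher and 3997 lower. The TEAD paralogs moved with Tead1: Tead3 was higher by 2.69, Tead4 by 1.80 and Tead2 by 1.65 on the log2 scale. In the kinase core Map4k4, a kinase upstream of LATS, was higher by 2.98 and the scaffold gene Sav1 by 2.83, while Stk3 (MST2) was lower, at -1.005. All of these passed an adjusted p of 0.05 in edgeR.

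Against control few of these 47 genes were called, though at a higher share than over all genes. The lists were chosen with earlier results known, so these shares are descriptions. At 6 days 2 of 47 passed (4.26%), and at 14 days 7 of 47 (14.9%), beside the 1.26% and 6.6% of all genes. Their median log2 fold change was 0.04 at 6 days and 0.09 at 14 days, against 0.03 and -0.02 over all genes. Among the TEAD factors and cofactors 0 of 5 passed in edgeR at either time. At an unadjusted p under 0.05 there were 0 at 6 days and 3 at 14 days, and DESeq2 called 0 and 2. Of all 18751 tested genes, 2377 and 4370 had an unadjusted p under 0.05 in edgeR at these times, and DESeq2 called 846 and 2752. The same counts stand beside the kinase and junction lists below. Tead2 had a log2 difference of -1.80 (adjusted p 0.118), Tead3 of -1.44 (adjusted p 0.387) and Tead4 of -0.93 (adjusted p 0.518) at 14 days. Without range B these were -1.05, 0.06 and 0.52, so that Tead3 and Tead4 changed sign.

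In the kinase core 0 of 14 passed in edgeR at 6 days (2 at an unadjusted p under 0.05, 0 by DESeq2) and 3 at 14 days, all higher. Wwc2, a KIBRA family scaffold that promotes LATS activity, rose from 33.9 to 46.2 CPM in control to 84.1 to 90.5 CPM at 14 days, by 1.15 on the log2 scale (SE 0.16, adjusted p 0.00209, edgeR). It was also higher at 14 than at 6 days, by 0.89 (SE 0.14, adjusted p 0.0073), a call lost without 14-day library 1 (adjusted p 0.0836). Frmd6, a FERM protein upstream of LATS, rose by 0.85 (SE 0.17, adjusted p 0.0117), and Mob1a, the LATS coactivator, by 0.64 (SE 0.17, adjusted p 0.0363). The Frmd6 call was lost without 14-day library 1 (adjusted p 0.0602). The Mob1a call was kept in 7 of 15 fits with 1 library left out.

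Ajuba has LIM relatives on the junction list, and they differed in direction. Limd1 rose by 0.90 at 14 days (SE 0.23, adjusted p 0.0307), from 144.1 to 190.4 CPM in control to 281.6 to 386.2 CPM, and kept its call in 9 of 15 fits with 1 library left out. Wtip fell by 0.90 (SE 0.15, adjusted p 0.00469), from 43.4 to 57.1 CPM to 25.5 to 30.2 CPM. Wtip was also lower at 14 than at 6 days, with a log2 difference of -1.16 (SE 0.14, adjusted p 0.00347), a call lost without 14-day library 1 (adjusted p 0.0622). These were the 2 of 11 that passed at 14 days, and 0 of 11 passed at 6 days in edgeR, in DESeq2 or at an unadjusted p under 0.05.

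Among the other 15 tested genes of the target signature, 1 rose and 1 fell at both times. Nt5e, which encodes the ecto-nucleotidase CD73, rose by 1.86 at 6 days (SE 0.41, adjusted p 0.0381) and 2.21 at 14 days (SE 0.47, adjusted p 0.0137). Its level was 59.9 to 117.3 CPM in control, 140.2 to 527.4 at 6 days and 179.7 to 622.5 at 14 days. The Nt5e call at 6 days was kept in only 3 of 15 fits with 1 library left out, with log2 fold changes from 1.70 to 1.95 in the 12 that lost it, and the call at 14 days was lost without 14-day library 2 (adjusted p 0.057). Gadd45a, a stress gene and p53 target, fell by 2.53 at 6 days (SE 0.34, adjusted p 0.00472) and by 2.88 at 14 days (SE 0.48, adjusted p 0.00467), from 44.4 to 85.3 CPM in control to 5.89 to 21.8 and 4.64 to 9.80 CPM. Both calls held in all 15 such fits. Igfbp3, an IGF-binding protein gene, was at 685.9, 5.83 and 215.7 CPM in the 3 14-day libraries against 7.42 to 34.0 CPM at 6 days, and rose by 4.02 between these times (SE 0.70, adjusted p 0.0104). Without 14-day library 1 that difference was 2.58 and was not called (adjusted p 0.206).

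**Figure D4:**
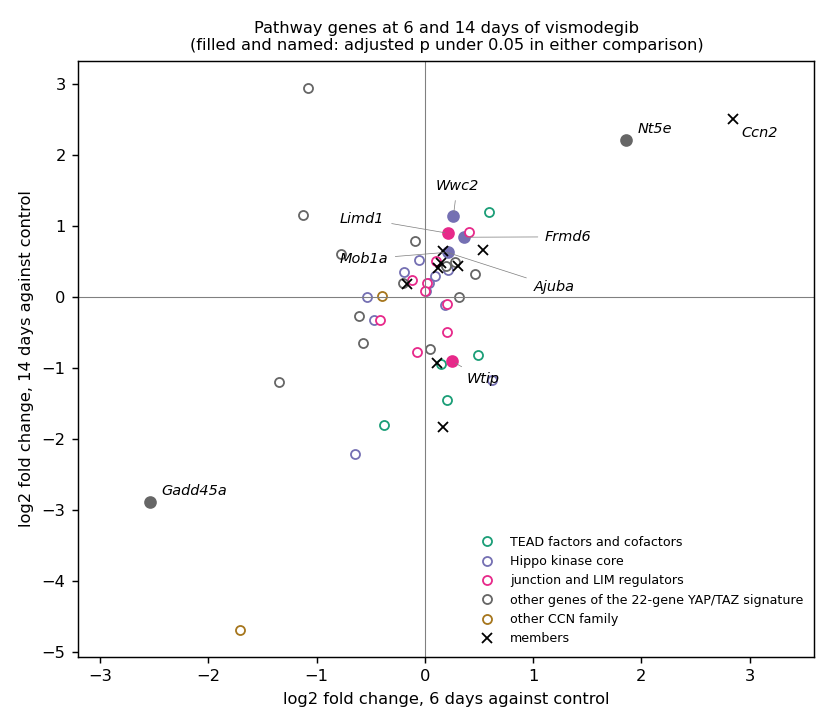
Log2 fold change at 6 days (horizontal) and at 14 days (vertical) against control for the members (crosses) and the 47 tested genes of 5 pathway lists (circles), with filled, named circles for an adjusted p under 0.05 in either comparison. The comparisons share their controls; Ccn2 and Nt5e lie at the upper right, Gadd45a at the lower left, and most other genes lie within 1 of 0 at 6 days.

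The remaining CCN genes were scarce. Ccn3 and Ccn5 had too few counts to test. Ccn6 was at 0.49 to 2.94 CPM in all libraries. Ccn4, known as a Wnt target, was at 1.03 to 2.64 CPM in control, 0 to 1.78 at 6 days and 0.01 to 0.13 at 14 days. Its log2 difference of -4.68 at 14 days did not pass in edgeR (adjusted p 0.0776). Of the 2 tested genes, Ccn4 and Ccn6, DESeq2 called 1 at 14 days against control.

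Since Ccn2 also reads TGF-beta signalling and Ccn1 belongs to the genes induced early by serum, those lists were set beside them. Of 7 TGF-beta readouts, 1 was called at 6 days and 2 at 14 days, beside 1.26% and 6.6% of all genes, and the same shares apply to the next lists. At 6 days 2377 of all 18751 tested genes had an unadjusted p under 0.05 in edgeR, and DESeq2 called 846. Ltbp2, a latent TGF-beta binding protein gene of the matrix, rose by 2.18 at 6 days (SE 0.47, adjusted p 0.0368) and by 2.62 at 14 days (SE 0.53, adjusted p 0.011). The call at 6 days was kept in 6 of 15 fits with 1 library left out, and without 14-day library 2 the 14-day value was 1.95 and was not called (adjusted p 0.057). Pmepa1, a SMAD-induced feedback gene, went the other way and fell by 3.43 at 14 days (SE 0.58, adjusted p 0.00468). Of 8 SRF and actin genes 0 were called by edgeR at 6 days (1 at an unadjusted p under 0.05, 1 by DESeq2) and 1 at 14 days, the tropomyosin gene Tpm1, lower by a log2 difference of -1.35 (adjusted p 0.0219). Of 15 immediate early genes 0 were called by edgeR at 6 days (6 at an unadjusted p under 0.05, 0 by DESeq2), with a median log2 fold change of 0.50, and 1 at 14 days, Egr3, lower at -1.68 (adjusted p 0.0291), with a median of -0.41. The Tpm1 call was lost without 14-day library 2 or 3, and the Egr3 call was kept in 10 of 15 fits with 1 library left out. The summed level of these 15 ran from 1467 to 2245 CPM in control, 1495 to 3830 at 6 days and 1236 to 1594 at 14 days. Its part in the levels of Ccn1 and Ccn2 was not tested.

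The 5 genes whose levels ran most like Ccn2 over the 15 libraries, among the 10042 genes averaging 10 CPM or more, were Uap1l1 (Pearson r 0.97), Camk1 (0.95), Nt5e (0.93), P2rx4 (0.92) and Gsdmd (0.92), on the log2(CPM + 0.5) scale. Ccn1 came number 1209 in that order (r 0.48), and Ajuba 1267, Wwtr1 1332 and Axl 1647. Yap1 (r -0.27) and Tead1 (r -0.30), with their high values in range B, came number 7694 and 7966. The 5 most like Ccn1 were Tmem238 (r 0.91), Bmyc (0.90), Slc52a2 (0.89), Aatf (0.89) and Rce1 (0.89), and its correlation with Yap1 was -0.75. These values are descriptions over libraries that share treatment group, range and depth.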

How the data were processed

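PolyA RNA was measured by RNA sequencing in 15 libraries, which were grouped by their treatment label into 4 control, 8 six-day and 3 14-day libraries. Replicate numbers were given in accession order. Per the file headers, the deposited counts give the uniquely aligned reads of a gene, and the deposited normalized RPKM values are those of the authors' counts after division by gene length and a size factor. Per the submitters' processing notes GSNAP aligned the reads to GRCm38. Versions, annotation and strand handling: not given in the sources used here. Overlapping and antisense genes may therefore share reads. Of 36528 Entrez identifiers, 31049 matched a RefSeq gene table (GRCm38.p6), which gave the symbols, coordinates and promoter sequences.

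The counts entered the quasi-likelihood F test of edgeR 4.0.16 (R 4.3.3) with TMM scaling, after filterByExpr by group had kept 18751 genes. A single fit held the 15 libraries without covariates (12 residual degrees of freedom). The threshold was an adjusted p (Benjamini-Hochberg, over every tested gene) below 0.05, and SE is the log2 fold change divided by the square root of F. RPKM values served only to compare levels between genes, with no test. The 95% intervals are 1.96 SE either side, and floors of 3 counts cover counting error only. The 10 members, the gene lists, the tests and the alternatives were chosen with earlier results of these data known. Named genes were all members, list genes called in any comparison, single examples of the TEAD, kinase and CCN lists, and the 5 genes most correlated with Ccn2 and with Ccn1; Hhip served as a check of drug response. Each of the 105 pairs of libraries differed by more than counting noise (chi-square per gene of 52.8 or above). On simulated data for 6 days against control (18337 genes), the test recovered 11 of 100 genes changed 2-fold and 58 of 100 changed 4-fold, with 3 false among 72 calls. For 14 days (18351 genes) it recovered 5 and 47, with 4 false among 56. Alternatives were RLE size factors, no filter on low counts, DESeq2 1.42.0, the 2 groups compared alone, range B as a covariate, left out or alone, and each library left out in turn. The range B contrast was added after the data were seen. Python 3.11.15 with pandas 2.3.3 and matplotlib 3.10.9 did the rest.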

Additional observations from a re-analysis of the deposited data

Results flagged for a closer look

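Yap1 in control library 4 was the 1 member value that stood far from the rest of a group of 4 to 10 libraries. It was 368.8 CPM there against 55.8 to 72.3 CPM in the other 3 controls, so that the gap to the nearest took 0.947 of the whole range, above Dixon's limit of 0.829 for 4 values. Chance flags about 1 in 20 groups. Control 4 is the only control library of range B, whose 3 6-day libraries had Yap1 at 277.8 to 292.4 CPM.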

How the results depend on the processing

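Counts of called genes follow the order 6 days versus control, 14 days versus control, 14 versus 6 days. Over all genes they were 236, 1238 and 730, and 846, 2752 and 2609 with DESeq2, 866, 3196 and 2036 with range B as a covariate, and 465, 2330 and 1322 without range B. Without a filter on low counts 14 against 6 days gave 460, and with the 2 groups fitted alone 14 days against control gave 374. Leaving out 1 library gave 69 to 308, 376 to 1438 and 3 to 1138. Among the members the counts were 1, 2 and 0, and leaving out 1 library gave 0 to 1, 0 to 2 and 0. DESeq2 called 2 at 14 against 6 days. At 14 days against control 1 was called without a filter and with 2 groups alone, and 3 with the covariate; range B alone called 0 at 6 days. Among the other pathway genes the counts were 2, 7 and 3, and leaving out 1 library gave 1 to 2, 4 to 8 and 0 to 5. DESeq2 gave 3, 11 and 8, the covariate 4, 17 and 10, and leaving out range B 2, 12 and 7; 2 groups alone gave 3 at 14 days against control and range B alone 1 at 6 days. The cause of these changes was not tested. RLE factors moved no count by over 1.5 times, and no called value changed direction under any alternative run. No paired analysis was possible because replicate numbers were given in accession order only. There were only 3 14-day libraries, all of range C, and in the simulation given above a change of 2-fold was rarely recovered. The simulation changed few genes and kept the spread due to range B, so its recovery does not measure detection in these data. Smaller changes were called at 14 days against control, such as Mob1a at 1.55-fold and Frmd6 at 1.80-fold. A gene that was not called may still have changed.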
